A study of Mus musculus with 8 samples.

Results

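Primary mouse podocytes kept in EGM-MV were compared with the same podocyte cultures kept in RPMI, across all 22237 genes measured. The comparison used 4 of the 8 arrays in the study, which were 2 podocyte arrays in EGM-MV and 2 podocyte arrays in RPMI. Each medium was given to both of the 2 independent podocyte cultures, called Pod2 and Pod3, so the difference between media could be taken within each culture. The other 4 arrays held parietal epithelial cells (PECs), cultures PEC2 and PEC3, in the same media, and entered the shared estimate of the spread between cultures.

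The podocytes came from female Pod-rtTA/LC1/R26R mice and the PECs from female PEC-rtTA/LC1/R26R mice, all of a mixed background that was 75% Sv129. The mice were adult, and their age in weeks was not given in the sources used here. In the first line a podocyte promoter, and in the second a rabbit podocalyxin promoter, drove the reverse tetracycline transactivator. Doxycycline in the drinking water then switched on Cre, which left a permanent beta-galactosidase tag in the cells concerned and in whatever descended from them. Tagged cells were collected by fluorescence sorting from glomerular outgrowths that had all been started in EGM-MV, and RNA was taken after repeated passages. The tag did not reach every podocyte, and how many mice gave each culture was not given in the sources used here.

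Podocytes are the epithelial cells that wrap the glomerular capillaries and hold the filtration slits with their foot processes. In the healthy kidney they are terminally differentiated and divide little, and in culture they commonly lose part of their specialised expression. EGM-MV is a medium for microvascular endothelial cells that is enriched in growth factors, whereas RPMI is a basal medium. EGM-MV was also given with a larger share of fetal calf serum than RPMI, so the medium and the serum cannot be told apart, and "medium" stands here for both. Cells that pass through S phase copy their DNA, and those in G2 and M phase make the spindle, chromosome and cytokinesis proteins, so the transcripts of these phases are widely used as a readout of how many cells in a culture are dividing.

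Values are log2 intensities after the arrays had been forced to a common distribution (quantile normalization), so each one states a level relative to the other genes on the array. The genes were listed by Ensembl identifier only. None of the 22237 identifiers could be paired with a symbol here, so no gene is named, the podocyte label could not be checked against podocyte markers, and markers of other cell types were not examined. The 4 podocyte arrays had medians of 6.27 (Pod2) and 6.27 (Pod3) in EGM-MV, against 6.21 (Pod2) and 6.27 (Pod3) in RPMI. Their SDs across genes were 2.04 and 2.03 in EGM-MV, against 2.04 and 1.98 in RPMI. The Pod3 RPMI array was therefore slightly narrower than the other podocyte arrays.

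The medium changed 3045 of the 22237 genes in podocytes, which is 13.7% of those tested (limma, Benjamini-Hochberg adjusted p below 0.05). Of these, 1713 genes were higher in EGM-MV (7.70% of all genes) and 1332 were lower (5.99%). Most of the changes were small. The median size of the change among the 3045 genes was 0.59 on the log2 scale, against 0.11 over all genes, and 2512 of them (82.5%) changed by less than 2-fold. The smallest change that passed was 0.25 on the log2 scale, with a median standard error of 0.10 among the genes that passed. Both EGM-MV arrays lay on the same side of both RPMI arrays at all 3045 genes. The test uses the same values and favours such genes, so this adds no further evidence. Over all genes, with or without a call, both EGM-MV arrays lay above both RPMI arrays at 27.2% and below them at 26.8%. These are bulk cultures, in which fewer cells of a state and less RNA per cell cannot be told apart.

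Large changes ran more often towards EGM-MV. At least 2-fold changes that passed the test numbered 533 (2.40% of all genes), with 346 genes higher in EGM-MV and 187 lower. At 4-fold or more there were 50 higher and 32 lower genes, and at 8-fold or more 15 higher and 2 lower. The largest rise was 37.2-fold and the largest fall 80.6-fold. A further 53 genes differed by at least 2-fold without passing the test.

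The number of genes called depended on single arrays. It was 923 without Pod2 EGM-MV, 1197 without Pod3 EGM-MV, 1550 without Pod2 RPMI and 1384 without Pod3 RPMI, where the lone array of the group was assumed to vary like the other groups. The surplus of higher over lower genes depended on scaling, since repeated quantile normalization gave 1494 higher and 1568 lower genes, and centring each array on its median gave 1402 and 1381.

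Genes ENSMUSG00000037625 and ENSMUSG00000001773 had the largest rises in EGM-MV among the 2916 genes that passed the test, did not overlap between media and reached a mean of 6 in one medium. ENSMUSG00000037625 read 11.84 (Pod2) and 12.27 (Pod3) in EGM-MV, against 6.77 (Pod2) and 6.89 (Pod3) in RPMI. Both EGM-MV arrays were far above both RPMI arrays, in which the gene lay a little above the median gene. The means were 12.05 ± 0.30 in EGM-MV and 6.83 ± 0.08 in RPMI (SD, n = 2 each), a difference of 5.22 ± 0.14 (SE) on the log2 scale, or 37.2-fold (limma adjusted p = 3.55e-06). ENSMUSG00000001773 read 10.75 (Pod2) and 11.65 (Pod3) in EGM-MV, against 6.08 (Pod2) and 6.09 (Pod3) in RPMI. It differed by 5.12 ± 0.33 (SE), or 34.7-fold (limma adjusted p = 0.000199). The RPMI arrays of this gene were almost equal, and the cultures differed in how high it stood in EGM-MV, so that the response was 4.67 in Pod2 and 5.56 in Pod3. The next largest rise among the 2916 genes was 4.56 on the log2 scale, and the 15th was 3.03.

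ENSMUSG00000039323 and ENSMUSG00000063415 had the largest falls. ENSMUSG00000039323 read 7.11 (Pod2) and 7.44 (Pod3) in EGM-MV, against 13.57 (Pod2) and 13.65 (Pod3) in RPMI. In RPMI it was thus far above the upper quartile of the arrays, and in EGM-MV between the median and the upper quartile. The difference was −6.33 ± 0.16 (SE), or 80.6-fold lower in EGM-MV (limma adjusted p = 3.55e-06), with −6.45 in Pod2 and −6.21 in Pod3. ENSMUSG00000063415 read 6.16 (Pod2) and 6.32 (Pod3) in EGM-MV, against 9.69 (Pod2) and 9.80 (Pod3) in RPMI. Its podocyte arrays differed little within a medium, and the fall was −3.52 in Pod2 and −3.48 in Pod3. The shared standard error was nevertheless 0.53, because the PEC cultures of this gene lay far apart, and the limma adjusted p was 0.0054. It was 0.052 without Pod2 EGM-MV and 0.0545 without Pod3 RPMI. The fall of ENSMUSG00000039323 stood well apart from the rest, since the third largest fall was −2.87 and the 15th was −2.47.

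**Figure D1:**
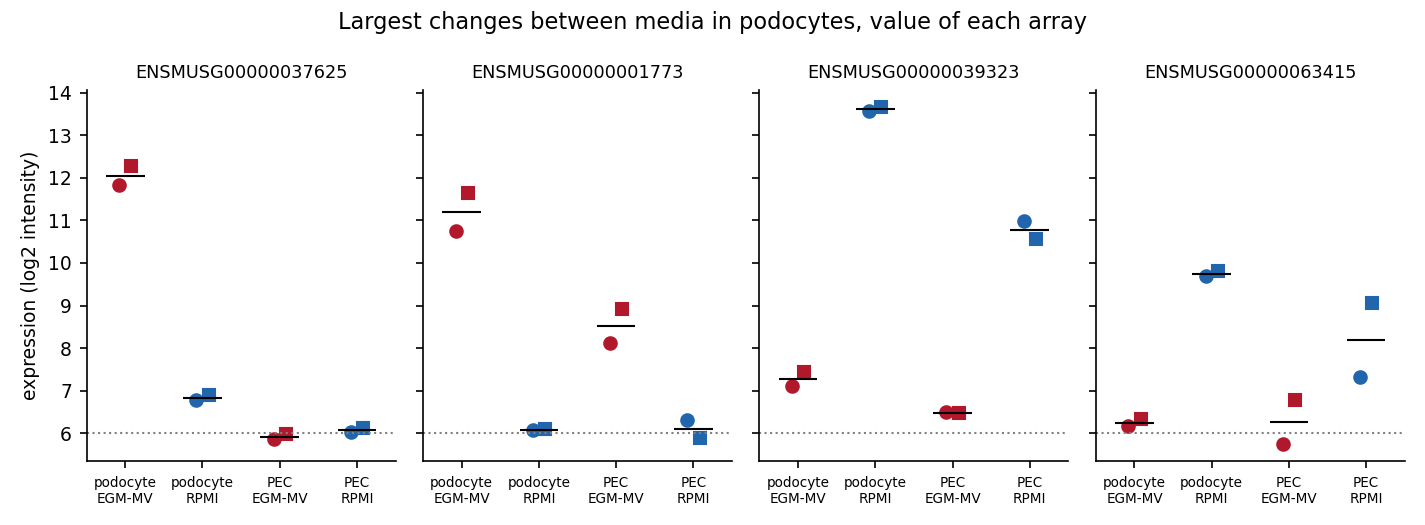
Log2 intensity (y axis) of the 2 genes with the largest rise and the 2 with the largest fall in podocyte EGM-MV, for each array by group (x axis, EGM-MV in red and RPMI in blue). Circles are cultures Pod2 and PEC2, squares are Pod3 and PEC3, bars are group means, and the dotted line marks 6. In podocytes both arrays of one medium stand clear of both arrays of the other in each panel, and ENSMUSG00000037625 is near 6 in all 4 PEC arrays.

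The cultures Pod2 and Pod3 answered the change of medium in much the same way at the genes that moved most. Of 611 genes that differed by at least 2-fold in Pod2 (353 higher in EGM-MV and 258 lower), 610 (99.8%) moved in the same direction in Pod3, and 485 (79.4%) also did so by at least 2-fold. None moved at least 2-fold the opposite way in Pod3. Of 614 genes chosen in the same way in Pod3 (424 higher and 190 lower), all 614 moved in the same direction in Pod2, 485 (79.0%) of them by at least 2-fold. The median size of the change was 1.32 in Pod2, where the first set was chosen, and 1.37 in Pod3, where it was not. For the second set it was 1.38 in Pod3 and 1.30 in Pod2. The response was thus of similar size in the culture that played no part in the choice, for either set.

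Over all genes the responses of the cultures correlated at r = 0.85 (Spearman's rho = 0.61, across 22237 genes, which are not independent replicates). Over the 12423 genes with a mean of at least 6 in one of the podocyte groups the values were r = 0.90 and rho = 0.80. The direction was shared at 65.5% of all genes and at 78.7% of those 12423. The arrays share their probes and were normalized together, so these correlations are descriptions only. Responses at least 2-fold apart between the cultures occurred at 26 genes, of which 3 were among the 3045. Among the 3045 genes the response was larger in Pod2 at 1641 and in Pod3 at 1404.

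The cultures differed somewhat more in RPMI than in EGM-MV. The SD across genes of the difference Pod3 minus Pod2 was 0.12 in EGM-MV and 0.18 in RPMI. The RPMI value includes the slightly narrower Pod3 RPMI array, and the part of that array in the larger SD was not tested. The median response was 0.02 in Pod2 and −0.03 in Pod3, and 90% of genes had responses from −0.55 to 0.57 in Pod2 and from −0.45 to 0.61 in Pod3.

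**Figure D2:**
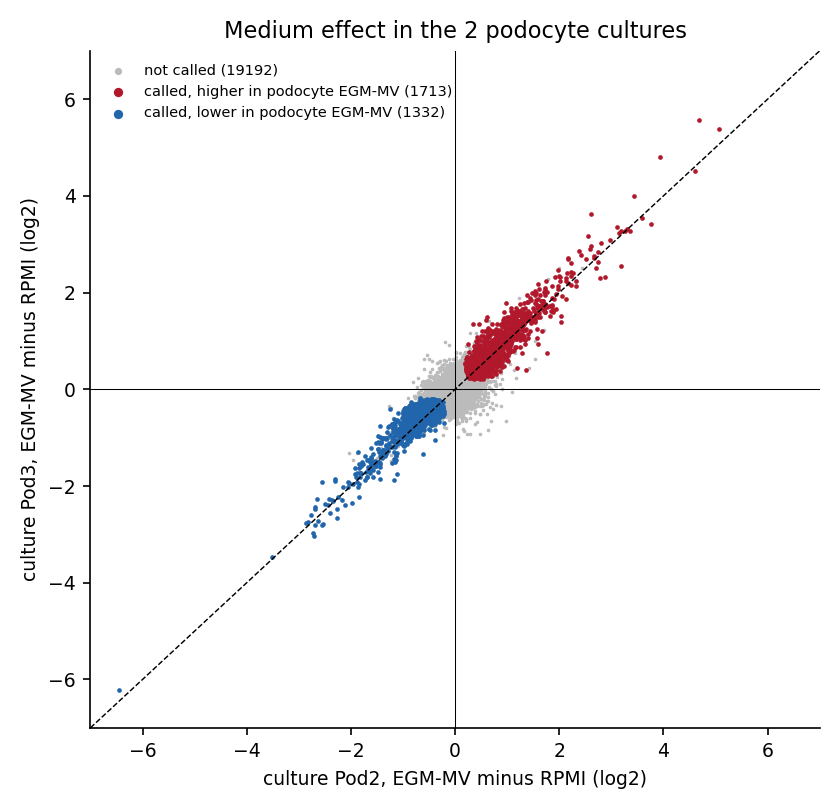
Medium effect (EGM-MV minus RPMI, log2) of each gene in culture Pod2 (x axis) and culture Pod3 (y axis). Red points passed the test and were higher in podocyte EGM-MV (1713), blue points passed and were lower (1332), grey points did not pass, and the dashed line marks equal responses, along which the large changes lie.

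The share of genes called depended on how strongly a gene was expressed. Among 3863 genes whose mean over the 4 podocyte arrays was below 5, only 4 were higher and 5 lower in EGM-MV (0.233%). The share was 3.29% between 5 and 6, 15.8% between 6 and 7, and 23.5% between 7 and 8. From 8 upwards it stayed between 25.9% and 28.2%.

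Higher genes outnumbered lower ones towards both ends of the range above 5 and were closer to balance in between. There were 128 higher and 78 lower genes between 5 and 6, and 293 higher and 184 lower between 6 and 7. Between 8 and 9 the counts were 333 and 317. Between 10 and 11 there were 208 higher and 128 lower genes, and at 11 or more 136 higher and 78 lower. Large changes did not follow this shape. At 11 or more the balance was the other way among at least 2-fold changes, with 9 higher and 16 lower genes, whereas between 6 and 7 there were 85 higher and 29 lower.

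The cultures parted in the typical response of dim genes. Between 5 and 6 the median response was 0.04 in Pod2 and −0.10 in Pod3, and between 6 and 7 it was 0.05 in Pod2 and −0.07 in Pod3. At 11 or more it was 0.09 in Pod2 and 0.09 in Pod3. The narrower spread of the Pod3 RPMI array moved with this pattern, since its lower quartile was 5.29, against 5.18 to 5.23 on the other podocyte arrays, and its upper quartile 8.29, against 8.39 to 8.40. The part of the array's spread in the smaller called changes was not tested.

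**Figure D3:**
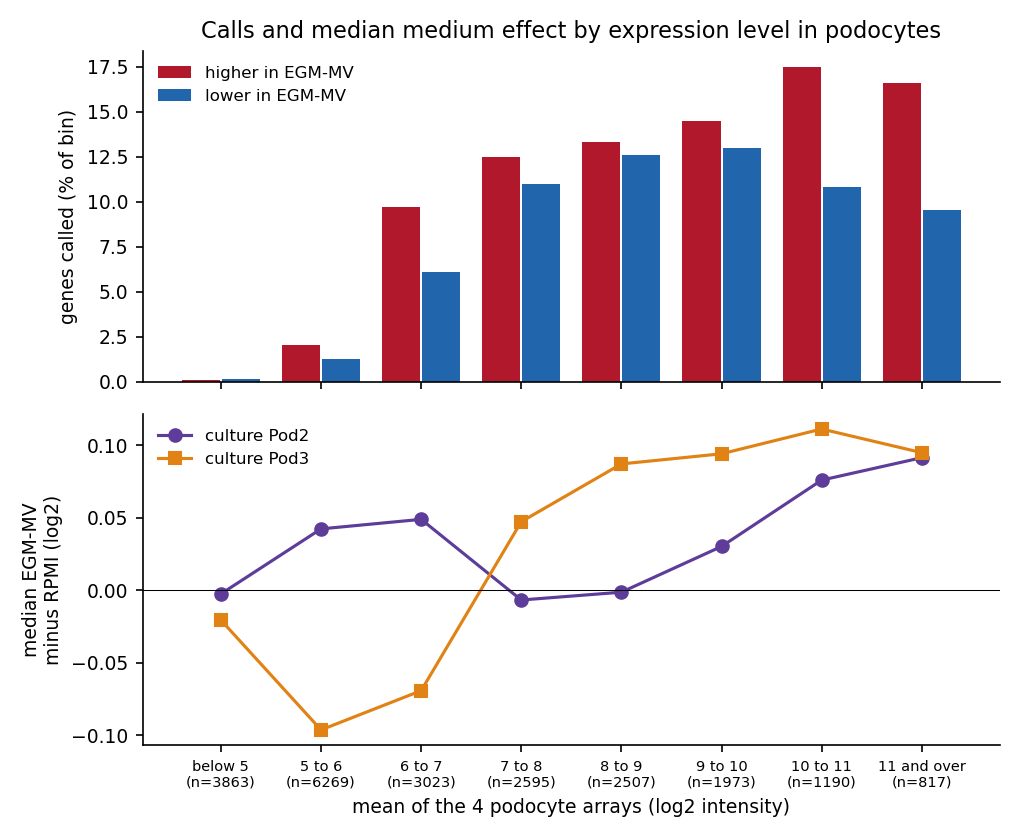
Top, share of genes called higher (red) or lower (blue) in podocyte EGM-MV (y axis, percent of the genes in the bin) by mean level over the 4 podocyte arrays (x axis, log2 intensity). Bottom, median medium effect (EGM-MV minus RPMI, log2) of the same genes in Pod2 and Pod3: the cultures differ in sign between 5 and 7 and both are near 0.09 in the top bin.

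Few genes crossed from a low to a clearly raised level. A mean of at least 6 was reached in both media by 11646 genes, in EGM-MV alone by 398 and in RPMI alone by 379. Of the 398 genes, 189 passed the test, 82 of them by at least 2-fold, whereas of the 379 genes 92 passed and 23 did so by at least 2-fold. A mean of 8 or more in EGM-MV with 6 or less in RPMI was found at 9 genes, of which 8 passed. The opposite was found at 6 genes, all of which passed. The level of 6 was an analysis choice and not a detection limit given with the arrays.

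Transcripts that mark G2 and M phase were higher in podocytes kept in EGM-MV. Lists of cell cycle genes were taken from the pairs of mouse genes that the scran package uses to assign cell cycle phase, which were derived from mouse embryonic stem cells and carry Ensembl identifiers. Of 78 measured genes of the G2/M list, 50 (64.1%) rose in EGM-MV, 4 fell and 24 did not pass, against 7.70% higher and 5.99% lower over all genes. Among the 12423 genes with a podocyte group mean of at least 6, to which 76 of the 78 belonged, 13.1% were higher and 10.3% lower. The median change of the list was 0.69 on the log2 scale (1.61-fold), against −0.01 over all genes and 0.03 over the 12423.

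The G2/M genes moved together in both cultures. The median response of the list was 0.60 in Pod2 and 0.75 in Pod3, and 63 genes were higher in EGM-MV in both cultures, 12 lower in both and 3 mixed. In the 12423 genes with a podocyte group mean of at least 6, these counts were 5404, 4370 and 2647. Of the 50 genes that rose, 26 did so by at least 2-fold, up to 3.37-fold, against 345 of the 12423. The 4 genes that fell did so by 0.62 to 1.00 on the log2 scale, and the 24 that did not pass ranged from −0.41 to 0.76. The median level of the list was 8.21 (Pod2) and 8.19 (Pod3) in EGM-MV, against 7.39 (Pod2) and 7.23 (Pod3) in RPMI. The list's level in EGM-MV was thus above that in RPMI on every podocyte array. Without Pod2 EGM-MV, 32 genes of the list were called higher. The list's median was 0.62 after repeated quantile normalization and 0.66 after centring the arrays.

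The lists for S phase and G1 moved less. Of 62 S genes, 16 (25.8%) rose in EGM-MV, 3 fell and 43 did not pass, with a median change of 0.17. Of 93 G1 genes, 23 (24.7%) rose, 2 fell and 68 did not pass, with a median of 0.11. Both shares of higher genes were above the 13.1% of the 12423 genes with a podocyte group mean of at least 6. Rises of at least 2-fold passed at 7 of 62 S genes and 2 of 93 G1 genes, against 345 of those 12423. The G1 count at 2-fold was thus not above the share of those genes. The S median was 0.13 in Pod2 and 0.24 in Pod3, and the G1 median 0.07 in Pod2 and 0.18 in Pod3. On the arrays themselves the median level of the S list was 8.25 (Pod2) and 8.17 (Pod3) in EGM-MV, against 8.13 (Pod2) and 8.06 (Pod3) in RPMI. That of the G1 list was 8.52 (Pod2) and 8.56 (Pod3) in EGM-MV, against 8.60 (Pod2) and 8.45 (Pod3) in RPMI, so the media overlapped for this list. The counts of higher genes in both lists fell when any 1 podocyte array was left out, as did the count over all genes. Each such fit leaves 1 array in a group, so the falls do not show dependence on a particular array. The S median was 0.21 without Pod2 EGM-MV, 0.18 without Pod3 EGM-MV, 0.22 without Pod2 RPMI and 0.12 without Pod3 RPMI. In the same order the G1 median was 0.12, 0.12, 0.15 and 0.04. Cell density at harvest was not given in the sources used here, and its part in the counts of these lists was not tested.

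**Figure D4:**
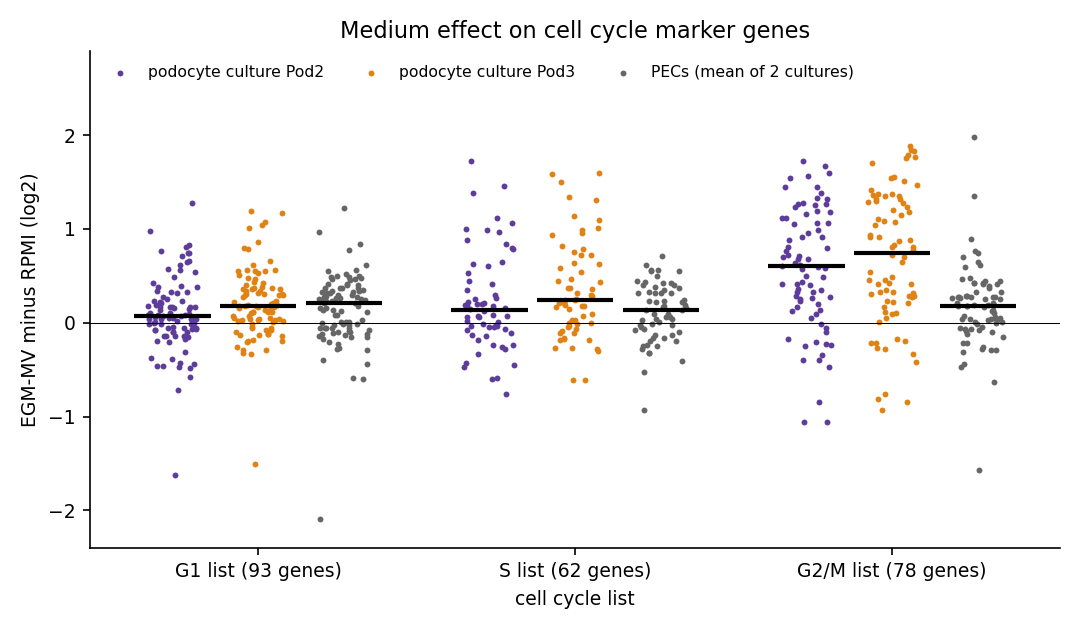
Medium effect (EGM-MV minus RPMI, log2, y axis) of each measured gene of the G1, S and G2/M lists (x axis) in podocyte cultures Pod2 and Pod3 and, as the mean of PEC2 and PEC3, in PECs. Bars are medians: those of the G2/M list are 0.60 in Pod2, 0.75 in Pod3 and 0.18 in PECs.

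The G2/M response was larger in podocytes than in PECs. In PECs the median change of the list was 0.18, with 10 of the 78 genes higher and 3 lower in EGM-MV. Over all genes, 7.64% were higher in PECs. PECs had 1563 higher and 898 lower genes among the 12423 with a podocyte group mean of at least 6. The list's share of higher genes in PECs was thus close to that of these 12423, which were chosen by podocyte and not PEC level. Their median change in PECs was 0.02, against 0.18 for the list. The PEC arrays had list medians of 8.65 (PEC2) and 8.51 (PEC3) in EGM-MV, against 8.42 (PEC2) and 8.36 (PEC3) in RPMI. Podocytes in RPMI were thus the lowest of the 4 groups for this list, and podocytes in EGM-MV still stood below every PEC array. The interaction, which sets the change between media in podocytes against that in PECs, was higher in podocytes at 22 of the 78 genes and lower at 1 (limma, adjusted p below 0.05), against 1.48% and 1.51% of all genes, with a median of 0.42. Fewer of the 78 genes passed when any 1 podocyte array was left out, which leaves 1 array in its group. The list's median interaction was then 0.40 without Pod2 EGM-MV, 0.46 without Pod3 EGM-MV, 0.49 without Pod2 RPMI and 0.38 without Pod3 RPMI. The median change of the G1 list was 0.21 in PECs against 0.11 in podocytes. Its interaction was higher at 0 of 93 genes and lower at 0 (limma, adjusted p below 0.05). The median change of the S list was 0.14 in PECs against 0.17 in podocytes. For the S list the interaction was higher at 6 of 62 genes and lower at 0 (limma, adjusted p below 0.05), with a median of 0.11. At an unadjusted limma p below 0.05 it was higher at 14 and lower at 4. The share of all genes at the unadjusted threshold is not given here, so the counts at that threshold are not read as a result about the list.

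Over the genes that changed most, podocytes and PECs largely shared the direction of the response. Of the 533 genes that passed and changed at least 2-fold in podocytes, 461 (86.5%) had the same sign in PECs, against 64.7% of all genes. Their median change was 1.37 in podocytes and 0.54 in PECs along the podocyte direction, and 146 (27.4%) changed at least 2-fold the same way in PECs. A set chosen in one cell type is larger there by its choice, so the reverse was also taken. Of 385 genes chosen in PECs, 340 (88.3%) had the same sign in podocytes, with a median change of 0.76 in podocytes along the PEC direction and 1.35 in PECs, and 139 (36.1%) changed at least 2-fold the same way in podocytes. Both cell types had a smaller response at the genes chosen in the other. In PECs, 12.3% of all genes passed the test.

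The test of the difference between the cell types passed at 664 genes (2.99% of all genes), with a higher effect in podocytes at 329 of them and a lower one at 335. With the culture as a replicate block the count was 1604. It was 149 without Pod2 EGM-MV, 165 without Pod3 EGM-MV, 220 without Pod2 RPMI and 254 without Pod3 RPMI. Centring the arrays on their medians gave 236 higher and 402 lower genes, whereas repeated quantile normalization kept the split even, with 350 higher and 354 lower.

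ENSMUSG00000037625 differed most plainly between the cell types among the 4 genes above. In PECs it read 5.86 (PEC2) and 5.98 (PEC3) in EGM-MV, against 6.03 (PEC2) and 6.12 (PEC3) in RPMI, a change of −0.16 that did not pass (limma adjusted p = 0.521). The difference between the effects was 5.38 ± 0.20 (SE, limma adjusted p = 0.000188). ENSMUSG00000001773 also rose in PECs, which read 8.11 (PEC2) and 8.91 (PEC3) in EGM-MV, against 6.30 (PEC2) and 5.89 (PEC3) in RPMI. Its rise was larger in podocytes by 2.70 ± 0.47 (SE, limma adjusted p = 0.0301). That call was lost when single arrays were left out, with adjusted p of 0.14 without Pod2 RPMI, 0.0856 without Pod3 EGM-MV, 0.107 without Pod3 RPMI, 0.0503 without PEC2 EGM-MV and 0.0594 without PEC2 RPMI.

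ENSMUSG00000039323 fell in both cell types. PECs read 6.49 (PEC2) and 6.47 (PEC3) in EGM-MV, against 10.99 (PEC2) and 10.56 (PEC3) in RPMI, a change of −4.29 (limma adjusted p = 9.89e-05). The fall was larger in podocytes, with a difference between the effects of −2.04 ± 0.22 (SE, limma adjusted p = 0.00561). PECs stood at a lower level than podocytes in RPMI, and the part of that level in the difference was not tested. ENSMUSG00000063415 read 5.74 (PEC2) and 6.77 (PEC3) in EGM-MV, against 7.31 (PEC2) and 9.06 (PEC3) in RPMI. The PEC cultures of this gene differed by over 1 log2 unit within each medium while both had lower values in EGM-MV, and the change of −1.93 did not pass (limma adjusted p = 0.0561). The difference from podocytes was −1.57 ± 0.75 (SE, limma adjusted p = 0.37), or adjusted p = 0.00717 with the culture as a replicate block.

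**Figure D5:**
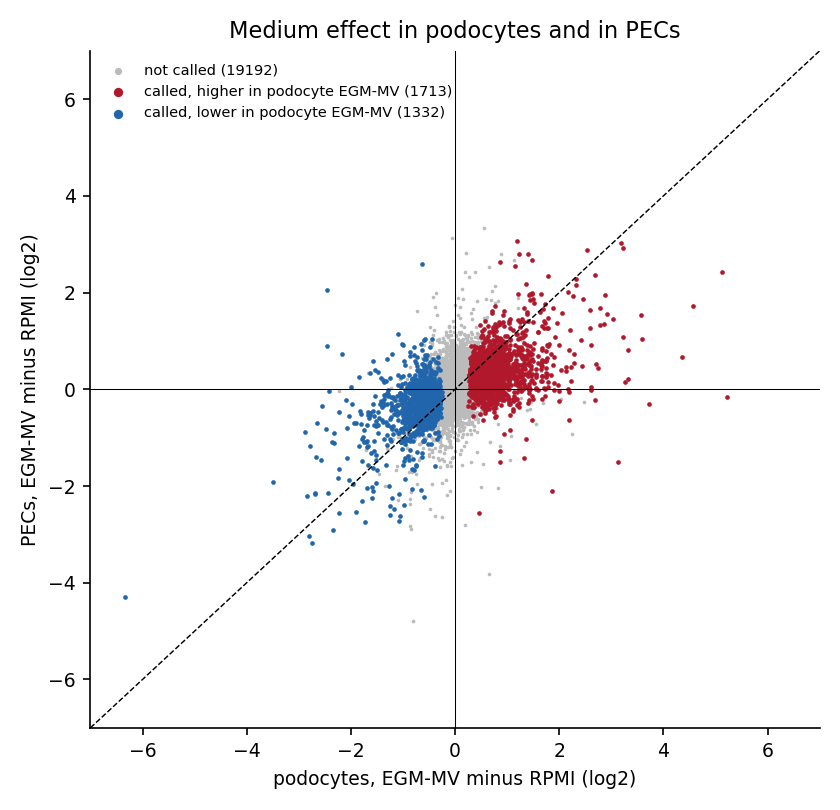
Medium effect (EGM-MV minus RPMI, log2) of each gene in podocytes (x axis, mean of Pod2 and Pod3) and in PECs (y axis, mean of PEC2 and PEC3). Red and blue points passed the test in podocytes (1713 higher and 1332 lower in EGM-MV), grey points did not, and the dashed line marks equal effects. The large podocyte changes mostly keep their sign in PECs and lie nearer to 0 there.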

How the data were processed

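RNA of 2 cultures each of podocytes and PECs in EGM-MV and in RPMI was hybridised to 8 Affymetrix Mouse Gene 1.0 ST arrays. The authors processed them in JMP Genomics 4.0 with the ENSG 14.0 custom probe annotation, by RMA background correction, quantile normalization, log2 transformation and iterative removal of outlying data points, and deposited log2 intensities per Ensembl gene. Scanner files were not analysed here. The other deposited table holds identical values for 22215 of the 22237 genes. The number of arrays limits the precision.

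Groups were taken from the labels and culture numbers from the column names. Means of the 4 groups were fitted with limma 3.58.1 in R 4.3.3 on all 8 arrays (4 residual degrees of freedom) without a replicate block, and p-values were adjusted by Benjamini-Hochberg over all genes. An adjusted p below 0.05 is a call. The fit was tested on simulated data. An exact permutation test of 2 arrays against 2 cannot go below p = 0.333, so none was used for single genes. The study's methods state that each culture was kept in both media, so the numbers pair the arrays. Deviations of same-numbered podocyte arrays from their group means correlated at r = 0.07 across genes. This correlation is not given here for the PEC arrays, which enter the same fit, and counts with the culture as a block are given below.

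Cell cycle lists came from scran 1.30.0: a gene stood in at least 10 pairs of a phase, was first in at least 90% of them and in at most 50% of the pairs of another phase. No gene was in more than one list. The members, lists and tests were chosen with earlier results of these data known. The 4 genes printed are the 2 largest rises and 2 largest falls among genes that passed, did not overlap between media and reached a mean of 6 in one medium. The rule written for named genes also asked for symbols, but 0 identifiers matched a symbol in the RefSeq table (GRCm38.p6), so that condition was dropped and 41 lists of symbols were not tested.

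Alternatives were the culture as a block, podocyte arrays alone, 2 other scalings, a filter on dim genes, a mean-variance trend, the methods' t-test, the other deposited table and leaving out each array.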

Additional observations from a re-analysis of the deposited data

Results flagged for a closer look

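The change between media was not the same in podocytes as in PECs at 664 genes, where the limma interaction had an adjusted p below 0.05. Among the 4 genes printed, the podocyte effect less the PEC effect was 5.38 on the log2 scale for ENSMUSG00000037625, 2.70 for ENSMUSG00000001773 and −2.04 for ENSMUSG00000039323. Each of these differences passed the same test. The calls at ENSMUSG00000037625 and ENSMUSG00000039323 were kept when any single array was left out, and that at ENSMUSG00000001773 was not. With the methods' t-test none of the 3 differences passed, at adjusted p of 0.073 for ENSMUSG00000037625, 0.235 for ENSMUSG00000001773 and 0.126 for ENSMUSG00000039323, with the effects unchanged.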

How the results depend on the processing

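With the culture as a replicate block, 4389 genes were called in podocytes, 3027 of the 3045 among them, and the interaction count was 1604. With it, 6 of 93 genes of the G1 list and 5 of 62 of the S list were lower in EGM-MV, against 2 and 3 without it. Lower genes with the block numbered 1899 of all 22237, against 1332 without it. They numbered 1816 of the 12423 genes with a podocyte group mean of at least 6, so neither list stood out for lower genes. The block changed no podocyte call of the 4 genes and moved no count of higher list genes by over 1.5 times. The 4 podocyte arrays alone gave 4632 calls, or 5072 with the replicate block. The methods' t-test gave 815 calls at the methods' threshold and, after Benjamini-Hochberg adjustment, 1084 in podocytes, 317 of at least 2-fold, 6 in the G1 list, 8 in the S list and 31 in the G2/M list. For the interaction it gave 1 gene, and 0 higher in the G2/M list, where limma called 22. At an unadjusted p below 0.05 the methods' t-test had 37 genes of the list higher and 1 lower. The share of all genes at the unadjusted threshold is not given here, so the 37 is not read as a result about the list.

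Leaving out 1 array at a time gave 923 to 3365 calls in podocytes, 149 to 650 for the interaction, 416 to 562 of at least 2-fold, 5 to 22 in the G1 list, 8 to 19 in the S list, 32 to 50 in the G2/M list and 4 to 22 for the interaction in the G2/M list. ENSMUSG00000063415 also lost its call with the methods' t-test (adjusted p = 0.0883), while the other 3 genes kept theirs in 17 of 17 settings. Higher genes made up 56.3% of the calls, against 48.8% after repeated quantile normalization, 50.4% after centring, 49.4% without Pod3 RPMI and 63.2% without Pod2 RPMI. The cause of these shifts was not tested. The lower ends of the ranges above come from fits that leave 1 podocyte array in a group. They do not show that the calls rest on a particular array. The values were already quantile normalized, so a shift of all transcripts together could not be measured, and array background can compress the changes of dim genes.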
